A study of Mus musculus with 8 samples.

Results

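The 35 genes described here encode the enzymes, one mitochondrial carrier and the transcriptional regulators that make fatty acids from acetyl-CoA and place them into triglycerides. They were chosen by name as genes of the pathway and make up 35 of the 19751 genes that the probes of the array could be matched to through their RefSeq accessions. Of these, 34 were tested and all 34 were well above background on all 8 arrays. *Elovl2*, which elongates very long polyunsaturated acyl chains, was covered by 1 probe that was not well above background on any array, and it was not tested.

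Gene expression was measured in AtT20, a mouse corticotroph tumor cell line that makes proopiomelanocortin (*Pomc*) and secretes ACTH. The control group (n = 4) was kept without drug, and the HX630 group (n = 4) was exposed to HX630, an agonist of the retinoid X receptor (RXR), at 10 μM. Both groups were kept for 48 hr in medium with 1% stripped serum. A single cell line, a single dose and a single time were studied, and the labels do not say whether samples of a group came from separate cultures, so p-values measure the spread between these samples, which may be technical. The question addressed here is which genes of lipid synthesis differ in signal between cells with and without the RXR agonist.

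Fatty acid synthesis begins with citrate, which leaves the mitochondrion and is cleaved to acetyl-CoA in the cytosol. Acetyl-CoA is carboxylated to malonyl-CoA, and fatty acid synthase joins these units to palmitate with the use of NADPH. Palmitate is then elongated and desaturated, activated to acyl-CoA, and esterified in steps onto glycerol 3-phosphate until a triglyceride is formed. In liver and fat these genes are controlled mainly by SREBP-1c (*Srebf1*) and ChREBP (*Mlxipl*), and *Srebf1* is itself a known target of the heterodimer of RXR with the liver X receptor (LXR).

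The sites through which such regulators act were looked for in the sequence around the start of each gene. RefSeq promoter windows on GRCm38.p6, from 250 bases before to 50 bases after a transcription start, were held for 30 of the 35 genes in 42 windows. *Scd1*, *Scd2*, *Fads1*, *Dgat1* and *Dgat2* had no entry. Each motif was searched on both strands. The sterol regulatory element TCACNCCAC, known as a site of SREBP, was found in 2 of the 30 genes, *Acsl1* and *Mlxipl*, which is 6.67% against 1.44% of all 27025 genes with a window. The E-box CACGTG, a palindrome that forms the core known to be bound by ChREBP and USF factors, was found in 6 genes, *Elovl4*, *Elovl5*, *Lpin2*, *Lpin3*, *Mlxipl* and *Slc25a1*, which is 20.0% against 8.09% of all genes. CCAAT, the box of the NF-Y complex, was found in 20 of the 30 genes (66.7% against 41.1%). Member genes have more windows each than all genes do, 42 for 30 against 32851 for 27025. By window the shares were 4.76% against 1.24% for the sterol element, 14.3% against 7.15% for the E-box and 50.0% against 37.4% for CCAAT. Exact direct repeats of the nuclear receptor site AGGTCA with 1 base or with 4 bases between the copies were in no member window. They were in 0.0481% and 0.0148% of all genes. At such shares a set of 30 genes would hold none in nearly any case, so this search cannot tell the members from other genes. No pair of different motifs overlapped in the member windows. A match is only a run of letters in the window. The absence of one says nothing about sites with other letters in the same window or about binding elsewhere.

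Windows of 4 genes whose signal passed the test are printed 5′ to 3′ on the strand of the gene, since they hold different sets of these motifs among genes that rose or fell. Capitals mark the motifs, and positions count from the start, with no base 0. In *Slc25a1* (chr16:17928170-17928469, minus strand) the E-box lies at -239 to -234, and the letters ATTGG, which read CCAAT on the opposite strand, lie at -125 to -121 and at 37 to 41. *Fads2* (chr19:10101454-10101753, minus strand) holds none of the motifs. *Mlxipl* has 2 windows. The first (chr5:135089640-135089939, plus strand) holds ATTGG at -173 to -169 and the E-box at -98 to -93, and the second (chr5:135106641-135106940, plus strand) holds the sterol regulatory element at -136 to -128. The first window of *Lpin2* (chr17:71183282-71183581, plus strand) holds the E-box at -9 to -4. Its other 2 windows are not printed, of which the second holds none of the motifs and the third holds ATTGG at -233 to -229, -165 to -161 and -57 to -53.
Slc25a1: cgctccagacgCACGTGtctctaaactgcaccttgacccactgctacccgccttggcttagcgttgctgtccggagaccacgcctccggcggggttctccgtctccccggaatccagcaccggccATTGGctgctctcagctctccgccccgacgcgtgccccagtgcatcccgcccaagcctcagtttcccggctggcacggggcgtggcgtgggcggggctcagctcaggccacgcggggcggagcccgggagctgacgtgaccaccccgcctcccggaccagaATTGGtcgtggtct
Fads2: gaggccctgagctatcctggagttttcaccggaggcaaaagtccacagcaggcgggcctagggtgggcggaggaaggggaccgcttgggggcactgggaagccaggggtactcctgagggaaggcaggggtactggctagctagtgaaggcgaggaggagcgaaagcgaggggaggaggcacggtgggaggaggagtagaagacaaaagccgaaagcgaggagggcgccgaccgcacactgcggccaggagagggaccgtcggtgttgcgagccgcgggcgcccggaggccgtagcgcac
Mlxipl, first window: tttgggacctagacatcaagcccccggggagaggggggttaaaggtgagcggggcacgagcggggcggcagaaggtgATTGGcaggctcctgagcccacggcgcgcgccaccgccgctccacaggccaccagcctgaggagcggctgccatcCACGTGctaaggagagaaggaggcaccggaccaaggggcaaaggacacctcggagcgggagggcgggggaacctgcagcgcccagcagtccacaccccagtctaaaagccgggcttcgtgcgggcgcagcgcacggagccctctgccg
Mlxipl, second window: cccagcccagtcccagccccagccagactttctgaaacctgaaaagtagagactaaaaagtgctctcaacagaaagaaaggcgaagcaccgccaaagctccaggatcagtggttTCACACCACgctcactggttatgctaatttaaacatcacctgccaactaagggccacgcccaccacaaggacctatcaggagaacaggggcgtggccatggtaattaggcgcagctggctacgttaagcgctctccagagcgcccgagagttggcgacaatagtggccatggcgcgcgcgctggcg
Lpin2, first window: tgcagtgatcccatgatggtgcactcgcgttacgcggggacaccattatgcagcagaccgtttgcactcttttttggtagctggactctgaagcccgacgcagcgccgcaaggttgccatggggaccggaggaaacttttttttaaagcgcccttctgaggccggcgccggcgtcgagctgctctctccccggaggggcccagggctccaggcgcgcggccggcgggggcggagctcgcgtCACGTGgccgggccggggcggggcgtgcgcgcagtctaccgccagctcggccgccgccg

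The arrays are single-channel Agilent arrays of 39429 probes. The value of a probe is the log2 of its processed signal after subtraction of the log2 of its array's 75th percentile, so that 0 is a signal at that percentile and levels of different probes are not comparable. The 75th percentile was 1335 to 1863 intensity units on the control arrays and 1803 to 1899 on the HX630 arrays, and 69.7% to 73.5% of the probes of an array were well above background. No array held a saturated spot. Arrays correlated at 0.994 to 0.998 within the groups and at 0.978 to 0.984 between them. All control arrays were on slide 1 and all HX630 arrays on slide 2, so that an effect of the slide or of its scan cannot be told apart from that of HX630 in any result given here. Of 6 corticotroph genes all 6 were detected and tested, and *Pomc* was at 8.03 ± 0.178 in control and 7.57 ± 0.041 in HX630 (mean ± SD, n = 4 each). Among the 6, 2 rose (*Crhr1* and *Neurod1*) and 1 fell (*Pcsk1*). The summed linear signal of the 6, in multiples of the 75th percentile, was 301 to 376 in control and 218 to 228 in HX630. Most of that sum was *Pomc*. Without *Pomc* it was 80.5 to 88.9 in control and 29.2 to 32.3 in HX630, a sum added after the data were seen. Both sums were lower in HX630 although 2 of the genes rose. Of 26 markers of other pituitary lineages, adipocytes, hepatocytes, fibroblasts, immune cells and endothelium, 15 were tested, 0 rose and 4 fell, and 8 were below background on all arrays. Of the adipocyte markers, *Adipoq* and *Fabp4* were below background on all arrays, *Lep* and *Plin1* were above it on all 8 (log2 fold changes 0.19 and 0.12) and *Cidec* was above it on all 8 and fell by 0.81 on the log2 scale. Of the hepatocyte markers, *Alb* and *Apoa1* were below background on all arrays, while *Serpina1a* (0.56) and *Ttr* (-0.35) were above it on all 8 and did not pass the test. The summed linear signal of the markers of other cell types was 2.83 to 3.48 in control and 1.5 to 1.71 in HX630. It was carried by *Cd3e*, which fell by 1.44 on the log2 scale. Without *Cd3e* it was 0.686 to 0.890 in control and 0.633 to 0.737 in HX630, so that the groups overlapped, a sum added after the data were seen. The part of either marker list in the results was not tested.

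Within the set, HX630-treated cells showed higher signals for 4 of 5 fatty acid desaturases, the elongase *Elovl6* and the citrate carrier *Slc25a1*. Signals were lower for 3 of its 9 genes that assemble triglycerides and for the regulator *Mlxipl*. These counts cover only the genes of the set and no desaturase outside it. A gene was called changed when its brightest tested probe had a Benjamini-Hochberg adjusted p under 0.01 in the limma fit together with more than a 1.5-fold difference. By this rule 10 of the 34 genes changed (29.4%), against 19.5% of all 15320 genes tested. *Fads2*, *Scd1*, *Slc25a1*, *Elovl6*, *Scd2* and *Fads1* rose, and *Lpin2*, *Dgat2*, *Agpat2* and *Mlxipl* fell. Among all genes tested 8.38% rose and 11.2% fell. The median log2 fold change of the 34 genes was 0.20, and that of all genes tested was -0.03. In 27 of the 34 genes (79.4%) the control and HX630 arrays did not overlap, 19 of them with all HX630 arrays higher and 8 with all HX630 arrays lower, against 61.5% of all genes. A further 15 genes passed the adjusted p but not the fold change, 11 of them higher and 4 lower in HX630, and 9 did not pass the adjusted p. For each of the 10 changed genes the groups did not overlap. The exact permutation test over the 8 arrays then gives p = 0.0286 (two-sided), the smallest value that the 70 regroupings allow. That p-value restates the lack of overlap and is no further support for the calls.

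**Figure D1:**
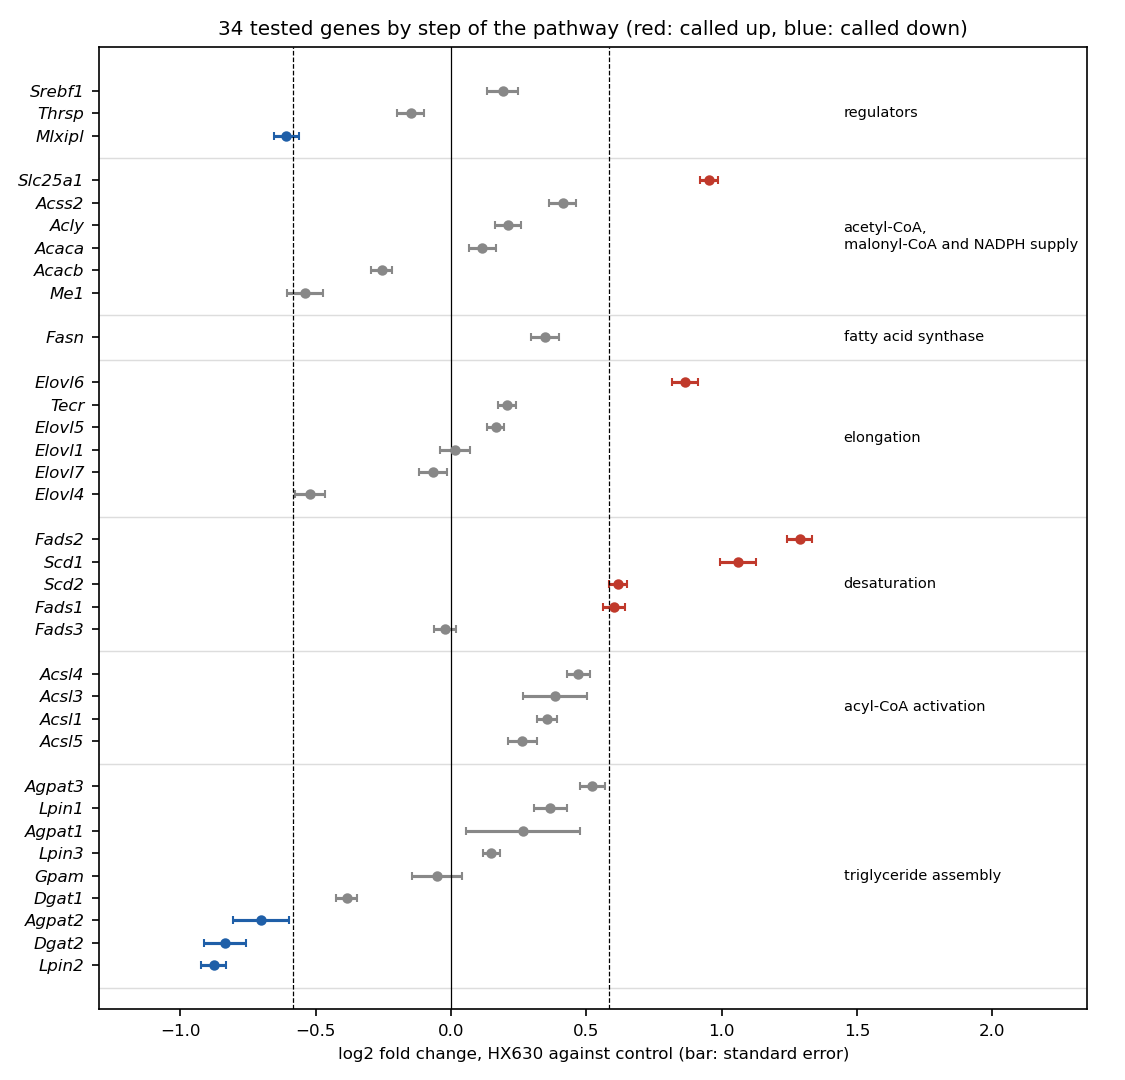
Log2 fold change (HX630 against control, horizontal axis) of the 34 tested genes, grouped by step of the pathway, with the standard error of the limma fit as bars. Red points rose and blue points fell by the rule on adjusted p and fold change. The desaturases hold 4 of the 6 genes that rose and triglyceride assembly holds 3 of the 4 that fell.

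Desaturation was the step with the highest median log2 fold change among the 7 roles of the set (0.62), and 4 of its 5 genes in the set rose. Fatty acid desaturases place double bonds into acyl-CoA chains. *Scd1* and *Scd2* make monounsaturated fatty acids, and *Fads1* and *Fads2* act in the making of polyunsaturated fatty acids.

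*Fads2* stood at -1.86, -1.89, -2.0 and -1.94 on the control arrays and at -0.58, -0.59, -0.66 and -0.71 on the HX630 arrays. All HX630 arrays lay above all control arrays, and the distance between the groups was many times the spread within them. The mean moved from -1.92 ± 0.060 to -0.64 ± 0.060 (SD, n = 4 each), a log2 fold change of 1.29 ± 0.046 (SE, limma adjusted p = 4.41e-07), or 2.44-fold. It had the highest fold change of the 34 genes, and its printed promoter window holds none of the motifs searched.

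*Scd1* was at 0.31, 0.14, 0.28 and 0.47 in control and at 1.34, 1.35, 1.36 and 1.38 in HX630. The treated arrays were nearly level while the control arrays differed more among themselves, and the groups did not overlap. Its signal rose 2.08-fold (log2 fold change 1.06 ± 0.067 SE, limma adjusted p = 6.2e-06). *Scd2*, the close relative of *Scd1*, was at 5.40, 5.37, 5.33 and 5.35 in control and at 5.95, 5.98, 5.99 and 6.0 in HX630. It rose 1.53-fold (log2 fold change 0.62 ± 0.032 SE, limma adjusted p = 2.19e-06), with no overlap between the groups.

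*Fads1* was at 2.17, 2.11, 2.07 and 2.03 on the control arrays and at 2.72, 2.71, 2.69 and 2.67 on the HX630 arrays. The groups were apart, but the change lay close to the fold change threshold at 1.52-fold (log2 fold change 0.60 ± 0.040 SE, limma adjusted p = 7.38e-06), and without control replicate 4 it was 0.58, under the threshold of 0.585. *Fads3*, a relative with a less settled role, overlapped between the groups. It was at -1.57 to -1.5 in control and at -1.61 to -1.47 in HX630, and its log2 fold change was -0.02 (limma adjusted p = 0.658).

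**Figure D2:**
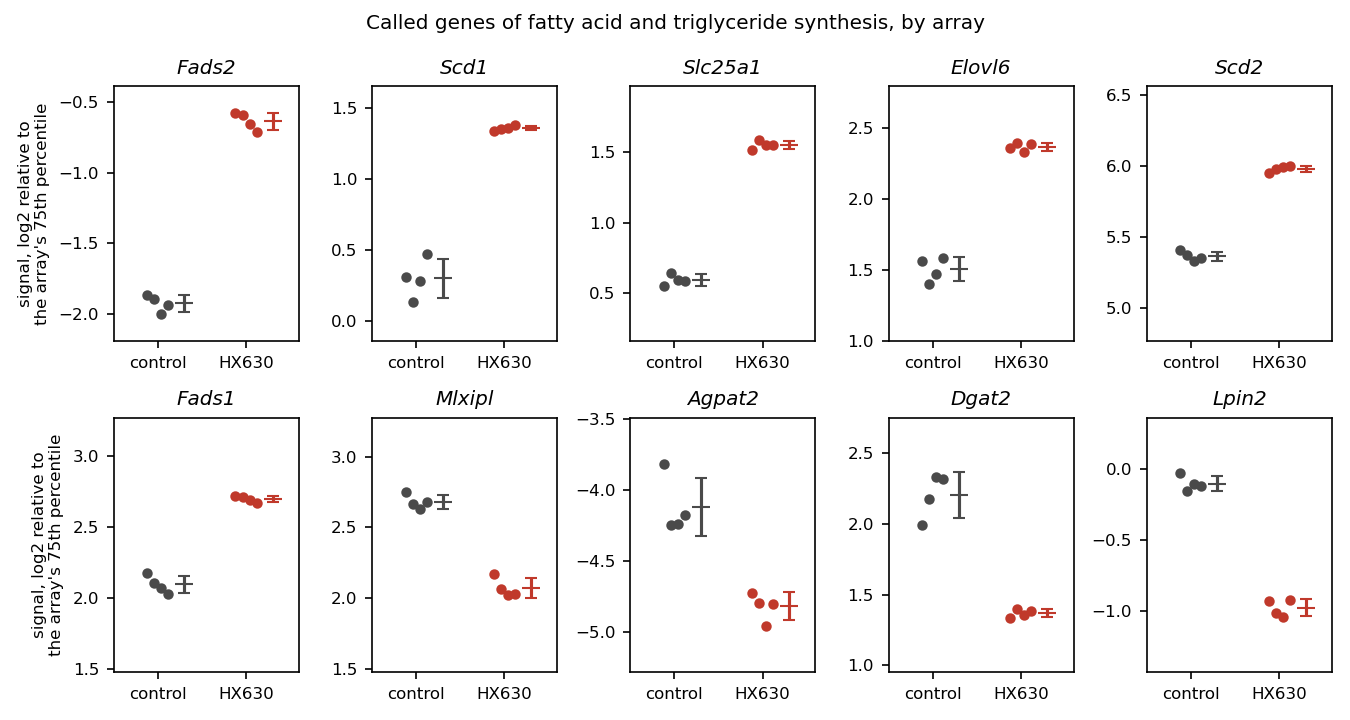
Log2 signal relative to the 75th percentile of the array (vertical axis) on each of the 4 control and 4 HX630 arrays for the 10 genes that changed. Points are arrays and the bars beside them mark the mean and SD of each group. In all 10 genes every HX630 array lies on the same side of every control array.

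Elongation lengthens acyl-CoA chains beyond palmitate, and 1 of its 6 tested genes rose. *Elovl6*, which elongates palmitate toward stearate and so supplies the substrate of *Scd1* and *Scd2*, was at 1.56, 1.40, 1.47 and 1.58 in control and at 2.36, 2.4, 2.33 and 2.39 in HX630. The lowest treated array lay well above the highest control array. The rise was 1.82-fold (log2 fold change 0.87 ± 0.048 SE, limma adjusted p = 3.12e-06). *Elovl4*, the elongase of very long chains, moved the other way without passing the fold change threshold, with log2 fold changes of -0.52 (limma adjusted p = 1.05e-04) and -0.17 at its 2 probes. *Elovl5*, an elongase of polyunsaturated chains, had a log2 fold change of 0.17 (limma adjusted p = 0.00239). *Tecr*, the reductase of the last step of each elongation cycle, had one of 0.21 (limma adjusted p = 9.93e-04). Neither of those passed the fold change threshold, though the groups did not overlap in either. In *Elovl1* and *Elovl7* the groups overlapped, with log2 fold changes of 0.01 and -0.07.

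The supply of substrates before fatty acid synthase was read in 6 genes, of which 1 rose. *Slc25a1*, the mitochondrial citrate carrier that delivers citrate for cytosolic acetyl-CoA, was at 0.55, 0.65, 0.60 and 0.59 in control and at 1.52, 1.58, 1.55 and 1.55 in HX630. Both groups were tight and did not overlap. The signal rose 1.94-fold (log2 fold change 0.95 ± 0.034 SE, limma adjusted p = 4.4e-07). *Acly*, which cleaves citrate to acetyl-CoA, had log2 fold changes of 0.21 (limma adjusted p = 0.00641) and 0.42 at its 2 probes, and *Acss2*, which makes acetyl-CoA from acetate, had 0.41 (limma adjusted p = 2.28e-04) and 0.26. These were higher in HX630 at both probes and under the fold change threshold.

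The acetyl-CoA carboxylases make malonyl-CoA, and neither isoform passed the fold change threshold. *Acaca*, the cytosolic form, had log2 fold changes of 0.12 (limma adjusted p = 0.072), 0.27 and -0.31 at 3 probes, so that its probes differed in direction, and the control SD of the third was 0.927. *Acacb*, the form at the outer mitochondrial membrane, had -0.26 (limma adjusted p = 8.41e-04) and -0.20. *Me1*, the cytosolic malic enzyme that yields NADPH, was at 2.78, 3.02, 3.06 and 2.89 in control and at 2.32, 2.43, 2.46 and 2.38 in HX630. All HX630 arrays were below all control arrays at a log2 fold change of -0.54 ± 0.068 (SE, limma adjusted p = 2.78e-04), with -0.44 and -0.50 at its other probes. It missed the fold change threshold with all arrays and passed it without control replicate 1, at -0.59.

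*Fasn*, fatty acid synthase itself, was at 0.13, -0.12, -0.02 and -0.01 on the control arrays and at 0.34, 0.35, 0.33 and 0.34 on the HX630 arrays. The HX630 arrays were nearly identical and all above control. The difference was 1.27-fold (log2 fold change 0.35 ± 0.053 SE, limma adjusted p = 7.67e-04), which passed the adjusted p and not the fold change threshold.

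Acyl-CoA synthetases activate free fatty acids for esterification or oxidation. The 4 genes read here were all higher in HX630 with no overlap between the groups, and 0 of the 4 passed the fold change threshold. Their median log2 fold change was 0.37. The values were 0.47 for *Acsl4* (limma adjusted p = 3.71e-05), which prefers arachidonate, 0.38 for *Acsl3* (adjusted p = 0.0249), 0.35 for *Acsl1* (adjusted p = 8.75e-05) and 0.26 for *Acsl5* (adjusted p = 0.00327). *Acsl4* was at 4.06, 3.96, 3.91 and 3.98 in control and at 4.44, 4.49, 4.40 and 4.46 in HX630, and it passed the threshold when the arrays were scaled to the spike-in probes (0.69) or corrected with normexp (0.66).

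Triglyceride assembly runs from glycerol 3-phosphate acyltransferase through the AGPAT acyltransferases and the lipin phosphatases to the DGAT acyltransferases. Of its 9 genes 0 rose and 3 fell, 1 at each of the last 3 of those steps. *Agpat2*, which makes phosphatidic acid, was at -3.82, -4.25, -4.24 and -4.17 in control and at -4.72, -4.80, -4.96 and -4.81 in HX630. The groups did not overlap, and control replicate 1 lay apart from the other controls. Its signal fell to 61.5% of control (log2 fold change -0.70 ± 0.10 SE, limma adjusted p = 6.6e-04), and the change was under the threshold with spike-in scaling (-0.48).

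*Lpin2*, a phosphatidate phosphatase that yields diacylglycerol, was at -0.03, -0.15, -0.10 and -0.12 in control and at -0.93, -1.02, -1.04 and -0.92 in HX630. Its signal fell to 54.5% of control (log2 fold change -0.88 ± 0.045 SE, limma adjusted p = 2.01e-06), and its first promoter window holds the E-box shown above. The other lipins did not fall. *Lpin1* had a log2 fold change of 0.37 (limma adjusted p = 0.00143) with 0.23 at its other probe, and *Lpin3* had 0.15 (limma adjusted p = 0.00401), with all HX630 arrays higher in both.

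*Dgat2*, which adds the last acyl chain and is linked to newly made fatty acids, was at 1.99, 2.18, 2.33 and 2.32 in control and at 1.34, 1.4, 1.35 and 1.38 in HX630. The control arrays were spread more widely than the treated ones, and the groups were clearly apart. The signal fell to 56.0% of control (log2 fold change -0.84 ± 0.077 SE, limma adjusted p = 4.59e-05). *Dgat1*, an unrelated enzyme of the same reaction, was at 0.40 to 0.50 in control and at no more than 0.10 in HX630. It was lower on every HX630 array and did not pass the fold change threshold (log2 fold change -0.39, limma adjusted p = 8.47e-05).

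The remaining genes of assembly did not change by the rule. *Agpat3* was at 3.16, 3.18, 3.03 and 3.09 in control and at 3.59, 3.69, 3.65 and 3.62 in HX630, a log2 fold change of 0.52 (1.44-fold, limma adjusted p = 3.63e-05). It was opposite in sign to *Agpat2* and passed the threshold with quantile normalization (0.60), with scaling to the array median (0.61) and with spike-in scaling (0.74). *Agpat1* had a log2 fold change of 0.27 with wide spread in both groups (SD 0.33 and 0.34, limma adjusted p = 0.311). *Gpam*, the mitochondrial acyltransferase of the first step, overlapped between the groups at -0.05 (limma adjusted p = 0.647).

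Among the 3 regulators 0 rose and 1 fell. *Mlxipl*, which encodes the glucose-responsive factor ChREBP, was at 2.75, 2.66, 2.63 and 2.68 on the control arrays and at 2.17, 2.06, 2.02 and 2.03 on the HX630 arrays. The groups did not overlap, and the signal fell to 65.6% of control (log2 fold change -0.61 ± 0.046 SE, limma adjusted p = 1.66e-05). The change lay close to the threshold and was under it with quantile normalization (-0.54), median scaling (-0.52), spike-in scaling (-0.39) and normexp background correction (-0.58). *Srebf1* was at -1.25, -1.29, -1.47 and -1.35 in control and at -1.05, -1.20, -1.15 and -1.20 in HX630. All HX630 arrays were above all control arrays by a narrow margin, with a log2 fold change of 0.19 ± 0.058 (SE, limma adjusted p = 0.0234), which passed neither threshold. *Thrsp*, a small lipogenic protein also known as Spot 14, overlapped between the groups with a log2 fold change of -0.15 (limma adjusted p = 0.0303).

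**Figure D3:**
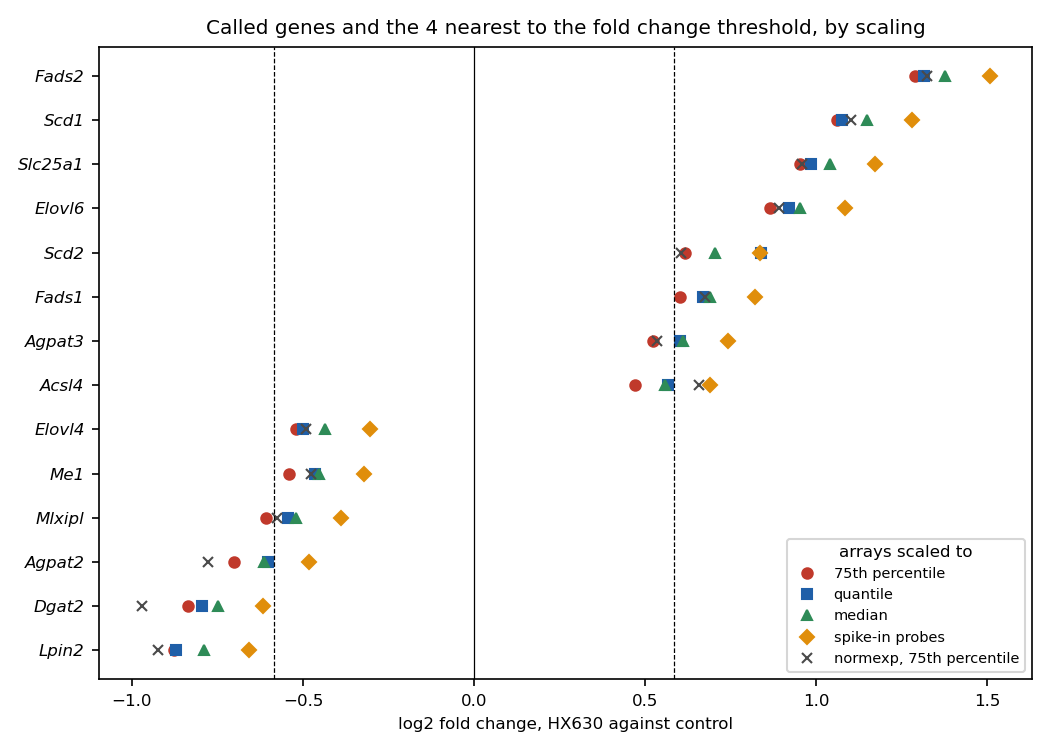
Log2 fold change (HX630 against control, horizontal axis) of the 10 changed genes and of the 4 other genes nearest to the fold change threshold, with each marker standing for one way of scaling the arrays or, for the crosses, of correcting the background. All 14 genes keep their sign under each, the dashed lines mark the fold change threshold, and spike-in scaling places every gene higher than the 75th percentile does.

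Scaling to the array median or to the spike-in probes moved the log2 fold changes of the 34 genes by one amount, while quantile normalization moved them by differing amounts. The median log2 fold change of all genes was -0.03 with the 75th percentile, 0.03 with quantile normalization, 0.05 with median scaling and 0.18 with 8 spike-in probes, while the median of the 34 genes minus that of all genes was 0.22 to 0.23 under each of these. With normexp background correction, at the 75th percentile, that difference was 0.34. *Fads3* and *Gpam* changed sign with quantile, median and spike-in scaling, *Elovl7* with median and spike-in scaling, and *Thrsp* with spike-in scaling, and none of these 4 genes passed the test under any of them.

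Other genes of the pathway, outside the 35, were read from 3 lists, and 67 of their 73 genes were tested, of which 5 rose and 8 fell. Changed genes made up 14.3% of the other enzymes, 17.2% of the regulators and 29.4% of the NADPH and acetyl-CoA supply genes. The share over all genes tested was 19.5%, and the differences from it were not tested. Among 21 tested enzymes of fatty acid and glycerolipid synthesis that are not in the set, 0 rose and 3 fell, with a median log2 fold change of -0.15. *Oxsm*, a synthase of the mitochondrial fatty acid pathway, was at -0.77 (limma adjusted p = 1.59e-06) at its brighter probe and at -0.01 at the other (limma adjusted p = 0.887), so its probes disagree. *Hacd1*, a dehydratase of elongation, was at -0.59 (limma adjusted p = 1.16e-05). Both lost the call with spike-in scaling (*Oxsm* -0.55, *Hacd1* -0.38), and *Oxsm* also as the mean of its probes (-0.39). *Hacd1* also lost it with quantile (-0.51) and median scaling (-0.51) and with the percentile taken over probes detected on all arrays (-0.58). The same held for *Hacd1* without HX630 replicate 4 (-0.57) and without control replicate 1 (-0.58). *Gpat2*, also counted among the 3 that fell, was well above background on all 4 control arrays and on 0 of the HX630 arrays. It passed the filter only through the control arrays, so its call is not taken as support and no p-value is given. By the bound it was at least 2.59-fold lower in HX630. That bound holds only for the main processing, since the log2 fold change with normexp correction was -0.93, a smaller difference.

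The regulators of the pathway moved in both directions. Of 29 tested, 3 rose and 2 fell, with a median log2 fold change of 0.02. *Nr1h3*, which encodes LXRα, was at 0.81 to 0.95 in control and at -0.50 to -0.30 in HX630. Its signal fell to 41.6% of control (log2 fold change -1.26 ± 0.053 SE, limma adjusted p = 7.94e-07), with -1.34 at its second probe, while *Nr1h2* for LXRβ was at -0.31 and under the fold change threshold. *Ppargc1b*, a coactivator of SREBP and LXR, fell to 24.6% of control (log2 fold change -2.02 ± 0.15 SE, limma adjusted p = 1.59e-05). *Srebf2*, the sterol-responsive relative of *Srebf1*, rose 1.63-fold (log2 fold change 0.70, limma adjusted p = 1.24e-05), with 0.47 at its dimmer probe. *Nfya*, a subunit of the CCAAT-binding NF-Y complex, rose by 0.60 on the log2 scale (limma adjusted p = 6.34e-06), and *Prkaa2*, a catalytic subunit of AMP-activated protein kinase, rose by 0.59 on that scale (limma adjusted p = 7.01e-06). With normexp correction these 3 were under the fold change threshold (*Srebf2* 0.55, *Nfya* 0.53, *Prkaa2* 0.58), as was *Prkaa2* without HX630 replicate 1 or 2 or control replicate 2 or 3 (0.57 to 0.58) and *Srebf2* as the mean of its probes (0.58). Of the receptors for HX630, *Rxra* had log2 fold changes of 0.10 (limma adjusted p = 0.503) and -0.68 (limma adjusted p = 0.00107) at 2 probes, *Rxrb* had -0.33 (limma adjusted p = 5.14e-05) and *Rxrg* -0.19 (limma adjusted p = 0.0576). By the brightest probe none of the 3 receptor genes changed.

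Of 17 tested genes of NADPH and acetyl-CoA supply, 2 rose and 3 fell, with a median log2 fold change of -0.13. The genes that rose encode cytosolic enzymes that yield NADPH. *Idh1*, the cytosolic isocitrate dehydrogenase, was at -2.33 to -2.20 in control and at -1.20 to -1.10 in HX630, a rise of 2.19-fold (log2 fold change 1.13, limma adjusted p = 5.81e-07). *Pgd* of the pentose phosphate pathway rose 1.54-fold (log2 fold change 0.63, limma adjusted p = 4.46e-06). The genes that fell encode mitochondrial enzymes. *Idh2*, the mitochondrial counterpart of *Idh1*, was at 5.00 to 5.21 in control and at 4.28 to 4.37 in HX630 (log2 fold change -0.78, limma adjusted p = 6.55e-06), and was under the threshold with spike-in scaling (-0.56). *Me3*, a mitochondrial malic enzyme, was at -1.50 (limma adjusted p = 2.62e-07) and -1.53 at its 2 tested probes, and *Pcx*, pyruvate carboxylase, was at -0.81 (limma adjusted p = 8.65e-07).

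**Figure D4:**
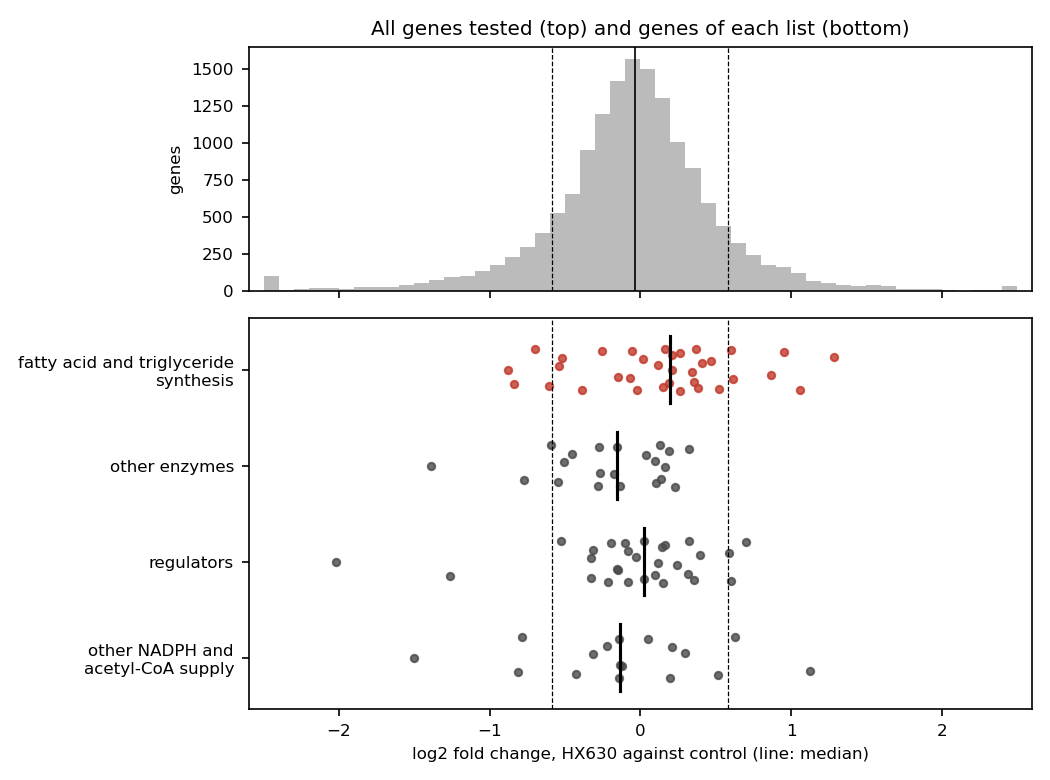
Top, histogram of the log2 fold change (HX630 against control) of all 15320 genes tested, with values beyond 2.5 drawn at the edge a line at the median of -0.03 and dashed lines at the fold change threshold. Bottom, each point is a gene of the 35-gene set or of the 3 lists beside it on the same axis, and the lines mark the list medians of 0.20, -0.15, 0.02 and -0.13.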

How the data were processed

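Gene expression was read on 8 single-channel arrays, 4 control and 4 HX630. Per the file headers and the study's methods, the authors deposited for each array the processed intensity of Agilent Feature Extraction 10.7.3.1, which is background subtracted and spatially detrended. A table of log2 values was deposited as well. Of its values for tested probes, 100% lay within 0.05 of the log2 signals scaled here.

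In R 4.3.3, control spots (1377 of 44397) and outlier spots were left out, spots of a probe were averaged, and the log2 signal was reduced by that of the array's 75th percentile. The 28553 probes well above background on at least 4 arrays were fitted with limma 3.58.1 (lmFit, eBayes), with Benjamini-Hochberg adjustment over all of them. The fit was tested on simulated data. Calls needed an adjusted p under 0.01 together with more than a 1.5-fold difference, which are the study's criteria with the adjustment added. Probes were named by RefSeq accession (26055 of 39429 matched), and each gene was read at its brightest tested probe. The array design uses another genome build than GRCm38.p6, so probes have no coordinates here, and promoter windows were matched by symbol.

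Every member gene is named, with up to 5 called genes of each other list. The *Rxr* genes and *Nr1h2* were named after their values were seen, as were the marker genes. The members and lists were chosen with earlier results of these data known. A probe below background on every array of a group was given as a bound, the bright group's mean over the higher of the dim probe's signal and the lowest signal well above background on each array. The number of arrays limits the precision. Alternatives covered scaling, background correction, filters, the variance model, the methods' t-test, thresholds and single arrays left out.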

Additional observations from a re-analysis of the deposited data

Results flagged for a closer look

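In 4 of the 68 groups of 4 arrays formed by the 34 genes, 1 array lay apart from the other 3 by a gap that took up more of the group's range than Dixon's critical value. Chance alone gives about 3.4 such groups. *Acly* on HX630 replicate 3 was at 4.82 against a mean of 4.89 on the others (gap over range 0.898), and the log2 fold change without it was 0.23. *Thrsp* on HX630 replicate 1 was at 2.70 against 2.61 (gap over range 0.853), with -0.17 without it. *Acacb* on control replicate 3 was at 1.55 against 1.68 (gap over range 0.84), with -0.29 without it. *Agpat2* on control replicate 1 was at -3.82 against -4.22 (gap over range 0.832), and its log2 fold change of -0.60 without that array stayed past the threshold.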

How the results depend on the processing

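With spike-in scaling 11 of the 34 genes rose and 2 fell, with a median log2 fold change of 0.42, as *Acsl3*, *Acsl4*, *Acss2*, *Agpat3* and *Lpin1* passed the threshold and *Agpat2* and *Mlxipl* no longer did. Over all probes that scaling gave 4146 higher and 1908 lower against 2131 and 3185, and the lists beside the set had 5 genes lower. With median scaling the median of the 34 genes was 0.29. The share of called probes that were higher was 40.1% with the 75th percentile, 51.6% with median scaling and 68.5% with spike-in scaling. With normexp correction 1355 probes and 2 genes of the lists beside the set were higher, and the cause was not tested. Without a fold change threshold 5763 probes rose and 7246 fell, 17 and 8 of the 34 genes, and 15 and 21 genes of the other lists. Searched on the gene's own strand only, CCAAT was found in 9 genes, which is 30.0% against 23.7% of all genes. By window it was 21.4% against 21.1%, nearly the same. The sterol regulatory element was found in 1 gene on that strand (3.33% against 0.625%). Leaving out 1 array gave 5 to 6 genes higher and 4 to 5 lower. The replicate block gave 6 higher and 4 lower among the 34 genes and 2210 and 3346 probes. Same-numbered arrays deviated together at correlations of -0.0096 to 0.523, and 5 of the 8 arrays correlated best with their own number. The number is also the position of the array on its slide, and the labels do not say that it pairs the samples. The main fit therefore left the numbers out, and an effect shared by arrays of the same number was not tested. Slide as a block could not be fitted. The methods' t-test gave 2110 probes higher and 3128 lower at their threshold, and 1981 and 2884 after Benjamini-Hochberg adjustment. In no alternative did any of the 10 changed genes change sign. The number of arrays and the brightness of *Elovl2* over background limit what can be seen.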
